A study of Mus musculus with 18 samples.

Results

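The regions described here are the places where the transcription factor MYC was called bound in mouse liver tumours with intact Arid1a, divided by whether the tumours with both Arid1a copies deleted also gave a peak there. Overlapping peaks of 3 WT and 3 Homo MYC ChIP-seq libraries were merged into 4477 regions, against 4775 when the 3 Het libraries were merged with them. Of the 4477, 1374 had a peak in 2 or more WT libraries. Within these, 1055 regions had a peak in none of the Homo libraries and are called WT-only below, which was 23.6% of the regions of the 6 lists. Another 97 regions, or 2.17%, had a peak in 2 or more libraries of each genotype and are called kept. The 2 classes hold 1152 regions in all.

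All mice were on the FVB background and carried LAP-tta and TRE-MYC, so that withdrawing doxycycline switched on MYC in hepatocytes and tumours formed. The WT mice were Arid1a fl/fl without Cre and about 55 days old, and the Homo mice were Arid1a fl/fl with Alb-cre and about 100 days old. The Het mice, used here only as libraries that took no part in the definition of the classes, were Arid1a fl/+ with Alb-cre and about 70 days old. Frozen tumour taken at death was cross-linked and precipitated with a MYC antibody, and an input library was made for each. Arid1a genotype, Alb-cre and age change together between WT and Homo and cannot be told apart here. Alb-cre and LAP-tta act in hepatocytes and related liver epithelium, so other cells of a tumour keep their Arid1a. Nothing in the labels shows that replicates came from separate mice, and p-values then measure only the spread between these libraries, which may be technical.

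MYC binds DNA with its partner MAX, most strongly at the E-box CACGTG, and is found at the open, CpG-rich promoters of many active genes when it is abundant. Its best known targets make ribosomes, translation factors, nucleotides and polyamines, and support growth. ARID1A is the large DNA-binding subunit of the canonical SWI/SNF (BAF) complex, which uses ATP to move nucleosomes and keeps enhancers and some promoters open. ARID1A is often mutated in liver cancer.

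The 6 lists differed greatly in length, and 2 libraries stood apart from the rest. The WT libraries gave 92, 1567 and 4291 peaks for replicates 1 to 3, and the Homo libraries 112, 51 and 303. WT replicate 1 was thus shorter than 2 of the 3 Homo lists, and the groups overlap. On the log10 scale the WT mean was higher by 0.851, or 7.10-fold in geometric mean, with a two-sided exact permutation p = 0.3, where the smallest p that 3 against 3 allows is 0.1. WT replicate 1 and Homo replicate 2 also had few peaks within 1 kb of a gene end, 17.4% and 25.5% of their lists against 60.7% to 69.4% in the other 4. The input depth recovered from the peak values was, in reads per kb, 4.04, 6.27 and 5.62 for the WT replicates and 3.69, 3.37 and 3.47 for the Homo replicates. Each Homo input was thus shallower than each WT input. At a −log10 p of at least 10 the log10 difference in peak number was 0.822. It was 0.582 at that limit once the lists were thinned to the shallowest input. The part of depth in peak number was not tested beyond this. Because WT replicate 1 is so short, 1023 of the 1055 WT-only regions rest on WT replicates 2 and 3 alone. Values without WT replicate 1 and Homo replicate 2 are given beside the results they touch.

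The following promoters show what the peaks sit on. They were chosen after their values were seen, because the centre of a CACGTG E-box lies within 30 bp of the peak summit, and each runs from 250 bases before to 50 bases after the RefSeq start site (assembly GRCm38.p6, the sequence behind mm10), 5′ to 3′ on the gene's strand with the E-box in capitals. The first 3 belong to kept regions: Dazap1, an RNA-binding protein gene, at chr10:80264764-80265063 on the plus strand; Xpot, which encodes the exportin of tRNAs, at chr10:121626283-121626582 on the minus strand; and Ran, the GTPase that drives nuclear transport, at chr5:129019906-129020205 on the plus strand. Wipf2, a regulator of actin assembly, at chr11:98863348-98863647 on the plus strand, had a peak in all 3 WT libraries but in only 1 Homo library, and so lies just outside the kept class. The last 3 belong to WT-only regions: G6pc3, a glucose-6-phosphatase gene, at chr11:102189449-102189748 on the plus strand; Cmc1, a factor for cytochrome c oxidase assembly, at chr9:118150147-118150446 on the minus strand; and Tars, threonyl-tRNA synthetase, at chr15:11399609-11399908 on the minus strand.
Dazap1: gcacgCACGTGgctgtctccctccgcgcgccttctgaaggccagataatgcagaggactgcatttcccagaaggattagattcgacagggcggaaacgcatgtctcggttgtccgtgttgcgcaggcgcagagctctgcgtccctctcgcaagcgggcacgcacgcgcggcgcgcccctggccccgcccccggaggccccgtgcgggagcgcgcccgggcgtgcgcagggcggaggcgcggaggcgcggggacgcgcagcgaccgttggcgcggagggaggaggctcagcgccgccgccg
Xpot: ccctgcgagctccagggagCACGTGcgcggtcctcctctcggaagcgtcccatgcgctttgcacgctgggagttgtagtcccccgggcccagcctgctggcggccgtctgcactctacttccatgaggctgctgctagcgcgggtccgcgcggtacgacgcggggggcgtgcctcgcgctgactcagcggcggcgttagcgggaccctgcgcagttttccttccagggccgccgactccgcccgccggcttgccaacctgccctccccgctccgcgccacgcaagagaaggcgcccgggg
Ran: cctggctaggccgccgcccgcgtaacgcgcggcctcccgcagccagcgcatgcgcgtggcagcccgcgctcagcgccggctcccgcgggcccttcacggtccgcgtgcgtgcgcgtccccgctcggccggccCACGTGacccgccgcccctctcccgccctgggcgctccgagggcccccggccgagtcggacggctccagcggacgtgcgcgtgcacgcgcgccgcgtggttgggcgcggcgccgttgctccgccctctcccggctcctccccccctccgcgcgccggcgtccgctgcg
Wipf2: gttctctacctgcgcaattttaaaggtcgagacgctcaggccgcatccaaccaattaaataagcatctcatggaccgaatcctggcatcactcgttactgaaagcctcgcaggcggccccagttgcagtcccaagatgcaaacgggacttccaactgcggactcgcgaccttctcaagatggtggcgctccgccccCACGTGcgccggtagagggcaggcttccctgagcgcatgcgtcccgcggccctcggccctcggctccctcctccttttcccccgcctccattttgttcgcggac
G6pc3: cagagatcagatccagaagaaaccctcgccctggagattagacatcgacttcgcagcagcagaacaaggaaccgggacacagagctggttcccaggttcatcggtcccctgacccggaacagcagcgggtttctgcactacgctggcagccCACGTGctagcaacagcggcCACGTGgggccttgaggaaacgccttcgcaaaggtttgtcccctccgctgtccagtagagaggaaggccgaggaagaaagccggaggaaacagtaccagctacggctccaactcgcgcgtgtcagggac
Cmc1: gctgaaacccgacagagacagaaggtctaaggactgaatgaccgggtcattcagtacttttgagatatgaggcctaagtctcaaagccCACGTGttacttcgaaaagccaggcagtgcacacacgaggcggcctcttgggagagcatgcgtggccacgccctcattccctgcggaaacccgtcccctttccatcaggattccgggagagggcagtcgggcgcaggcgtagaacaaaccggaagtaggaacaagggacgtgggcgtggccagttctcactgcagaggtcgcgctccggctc
Tars: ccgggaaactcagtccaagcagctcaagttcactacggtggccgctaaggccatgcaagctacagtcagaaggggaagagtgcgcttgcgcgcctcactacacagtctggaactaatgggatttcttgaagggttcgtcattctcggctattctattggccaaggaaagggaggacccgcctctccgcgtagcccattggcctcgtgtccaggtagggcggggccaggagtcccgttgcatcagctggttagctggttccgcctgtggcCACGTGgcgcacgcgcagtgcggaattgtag

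The centre of the E-box lies 30, 6 and 16 bp from the summit at Dazap1, Xpot and Ran, 12 bp at Wipf2, and 11, 28 and 4 bp at G6pc3, Cmc1 and Tars. G6pc3 has a pair of E-boxes, and is still WT-only. An E-box near the summit is therefore present on both sides of the division, and the shares over all promoters are given further below.

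Most recurrent WT regions had no Homo peak, and nearly all Homo peaks overlapped a WT peak. Of the 1374 regions with a peak in 2 or more WT libraries, 76.8% were WT-only, 222 (16.2%) had a peak in exactly 1 Homo library and 97 (7.06%) were kept. No region (0%) had a peak in 2 or more Homo libraries and none in WT. In whole tumours, fewer cells with MYC at a site and less MYC there per cell cannot be told apart. In the Homo lists, 108 of 112, 51 of 51 and 303 of 303 peaks lay in a region with a WT peak, and 92.9%, 100% and 94.1% lay in a recurrent one. Only 4 regions had a Homo peak and no WT peak, each in 1 Homo library, and 1 of these was at a gene end, that of Cyp8b1, the sterol 12-alpha-hydroxylase of bile acid synthesis. These counts depend on list length and on single libraries. With every list held to its top 51 peaks, the length of the shortest, there were 8 WT-only and 20 kept regions and 11 with a peak in 2 or more Homo libraries and none in WT. WT-only regions numbered 34 without WT replicate 2 and 29 without WT replicate 3, and kept regions 24 without Homo replicate 3 and 41 without Homo replicate 1, WT replicate 2 or WT replicate 3. Kept regions took 86.3% of the peaks of Homo replicate 2, 69.6% of Homo replicate 1 and 31.7% of Homo replicate 3, none of which can lie in a WT-only region. In WT replicate 1 they took 46.7% of the list and WT-only regions 39.1%. Counted by region, WT replicate 1 had a peak in 42.3% of the 97 kept regions, 5.41% of the 222 with 1 Homo library and 3.03% of the 1055 WT-only regions.

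Kept regions had the higher median rank in each of the 3 WT lists. Peaks were ranked within each WT list by their −log10 q, with 100 for the highest. The median percentile in kept regions was 71.7, 94.3 and 97.2 in WT replicates 1 to 3, and in WT-only regions it was 35.3, 45.1 and 73.0. The regions with exactly 1 Homo library lay between, at 62.5, 77.4 and 92.7. The difference of the medians was 36.4, 49.2 and 24.2 points, in the same direction in 3 of 3 libraries, with a mean of 36.6 and an exact sign-flip permutation p = 0.25, the smallest that 3 libraries allow. The fold enrichment at the summit ordered the classes in the same way. In WT replicate 3 its median was 13.8 in kept regions, 11.3 in those with 1 Homo library and 7.99 in WT-only regions, and in WT replicate 2 it was 11.4, 7.76 and 6.53. Within a list, kept peaks were also wider, with a median of 547 bp against 360 bp for WT-only peaks in WT replicate 3 and 433 bp against 255 bp in WT replicate 2.

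**Figure D1:**
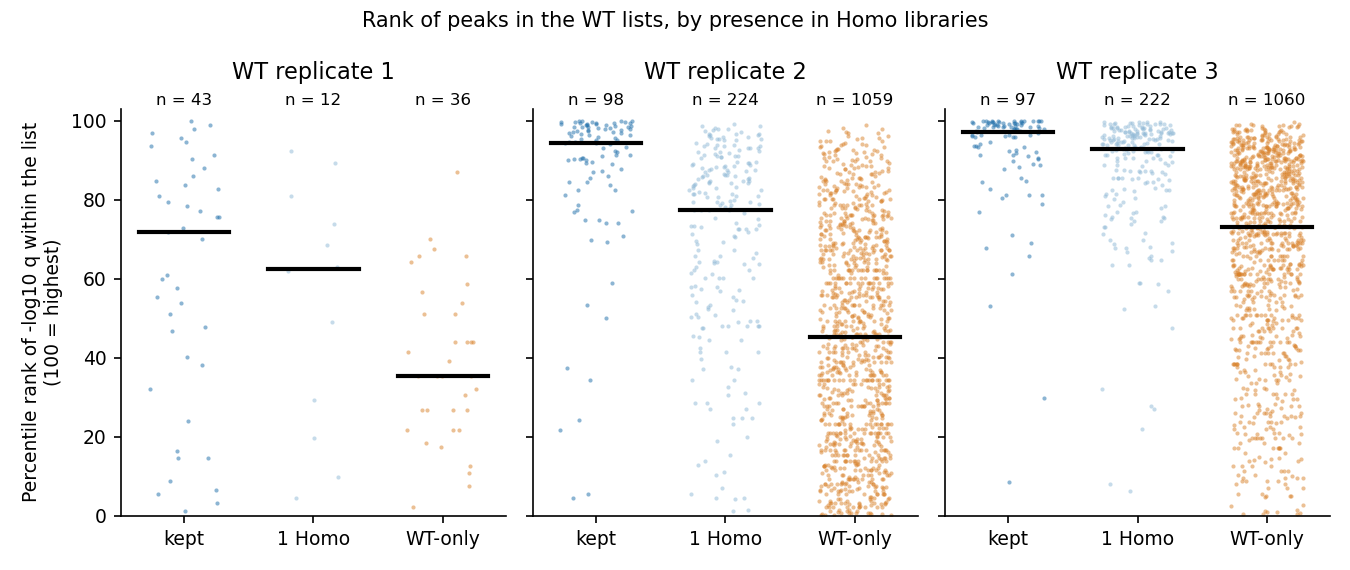
Percentile rank of −log10 q within each WT list (vertical axis, 100 highest) for peaks in kept regions, in regions with a peak in 1 Homo library and in WT-only regions; each point is a peak and the bar is the median. The kept medians of 71.7, 94.3 and 97.2 lie above the WT-only medians of 35.3, 45.1 and 73.0, but WT-only peaks reach the upper end of the lists of replicates 2 and 3.

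Presence in Homo was most frequent at the top of the WT lists. In WT replicate 3, 207 of the 429 peaks in the highest band of 10 percentile points had a peak in any Homo library (48.3%, 95% exact binomial interval 43.4 to 53.1), against 14% in the next band and 0.696% in the lowest. In WT replicate 2 the highest band gave 109 of 157 (69.4%, 61.6 to 76.5), the next 43.4% and the lowest 5.77%. Rank and presence did not coincide fully. WT-only peaks made up 187 of the highest band of WT replicate 3 and 46 of that of WT replicate 2. Regions above the 90th percentile in both of these lists numbered 113, of which 56 were kept, 43 had 1 Homo library and 14 were WT-only. At the other end, 185 regions lay under the 50th percentile in both lists, and 2 of them were kept, 5 had 1 Homo library and 178 were WT-only.

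**Figure D2:**
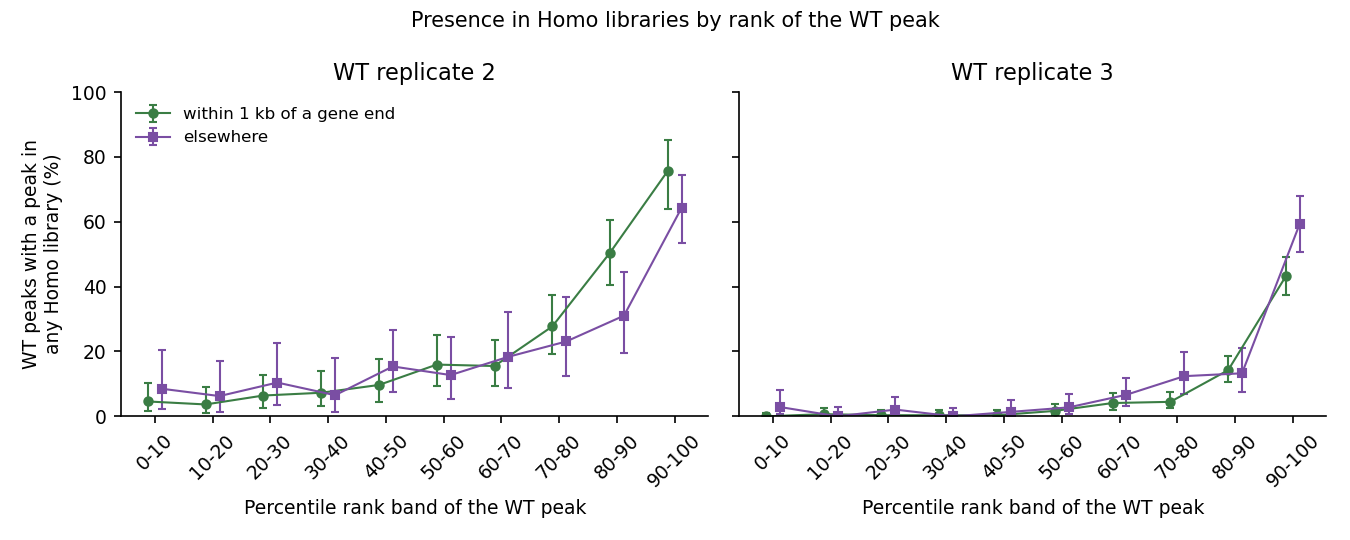
Share of WT peaks that had a peak in any Homo library (vertical axis, percent, with 95% exact binomial intervals) by rank band of the WT peak, for peaks within 1 kb of a gene end and elsewhere, in WT replicates 2 and 3. In the highest band the share was 75.7% at gene ends and 64.4% elsewhere in replicate 2, and 43.2% and 59.4% in replicate 3.

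Where a kept region was listed in both genotypes, the Homo peak usually had the lower fold. Homo replicate 3 and WT replicate 3 shared 95 kept regions, and the Homo fold was lower in 81 of them, with a median log2 ratio of Homo to WT of -0.88. Against WT replicate 2 the Homo replicate 3 fold was lower in 82 of 95, with a median log2 ratio of -0.63. Homo replicate 1 was lower than WT replicate 3 in 72 of 78 and Homo replicate 2 in 38 of 43. Set against WT replicate 1 the gap was smaller: Homo replicate 1 was lower in 13 of 25, with a median log2 ratio of -0.01, Homo replicate 2 in 23 of 32, with -0.35, and Homo replicate 3 in 24 of 41, with -0.19. These folds come from the contrast that chose the regions and carry no test. Fold also has 1 added to the scaled reads and to the background, which lowers it at shallower depth. Each Homo input was shallower than each WT input, and the part of this in the lower Homo folds was not tested.

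The shallower Homo inputs bear on which WT-only regions a Homo list could have held. Each WT value was scaled to the input depth of a Homo library and compared with the lowest −log10 p listed there. The values of both WT replicates 2 and 3 still passed in 673 of 1048 WT-only regions (64.2%) at the depth and limit of Homo replicate 1, in 263 (25.1%) at those of Homo replicate 2 and in 718 (68.5%) at those of Homo replicate 3. For kept regions the counts were 93, 88 and 93 of 97, and of these the Homo libraries listed 74, 41 and 92. Regions with 1 Homo library passed in 202, 144 and 206 of 222, of which 21, 6 and 178 were listed. Some regions that passed were thus not listed. The Homo listings define the classes, so these listed counts are a description and not a test. For the WT-only regions that did not pass, a difference was not detectable at this depth. With all 6 lists thinned to the shallowest input and held to a −log10 p of at least 10, 210 WT-only and 66 kept regions were left. At the same limit without thinning there were 813 and 83. Of the 210, 182 overlapped a WT-only region of the full lists. Reads in Homo libraries outside the listed peaks are not analysed here, so a WT-only region is one without a called peak, not one shown to be free of MYC.

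**Figure D3:**
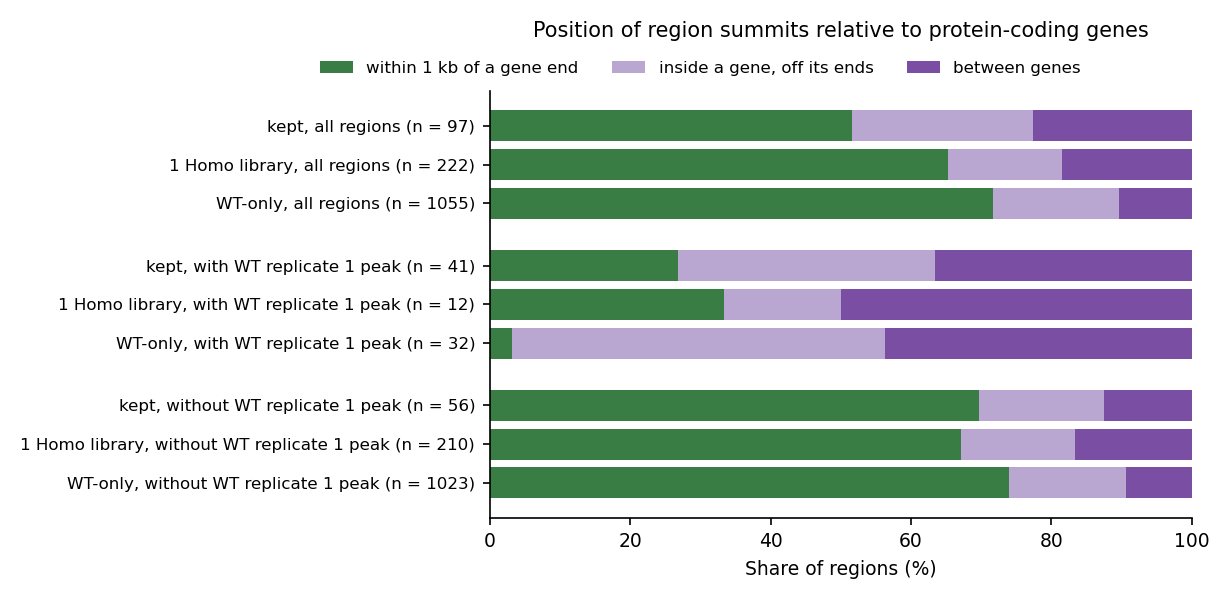
Share of region summits (horizontal axis, percent) no more than 1 kb from a protein-coding gene's end, inside a gene but off its ends, and between genes, for each class over all regions and for regions with and without a peak in WT replicate 1. Kept regions had 51.5% at gene ends over all regions but 69.6% once regions with a WT replicate 1 peak were set aside, against 73.9% in WT-only regions.

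The classes differed in position over all regions, but not beyond counting error among regions that the 2 short lists do not hold. A summit was placed at a gene end when it lay within 1 kb of the start of a protein-coding gene, or of either end of genes whose start was not in the sequence table. Of the WT-only regions 757 of 1055 were at gene ends (71.8%, 95% exact binomial interval 68.9 to 74.5), 188 inside genes and 110 between genes. Of the kept regions 50 of 97 were at gene ends (51.5%, 41.2 to 61.8), 25 inside genes and 22 between genes. Among regions without a WT replicate 1 peak the shares were 73.9% of 1023 WT-only regions and 69.6% of 56 kept regions. Without regions having a peak in WT replicate 1 or Homo replicate 2 they were 73.9% and 75.6%, the latter 34 of 45. Among regions with a WT replicate 1 peak the order was the opposite, 1 of 32 WT-only regions (3.13%) and 11 of 41 kept regions (26.8%). Taken library by library the kept share minus the WT-only share was 23.7, -20.3 and -20.2 percentage points in WT replicates 1 to 3, with a mean of -5.61 and an exact sign-flip permutation p = 1. The mean was 5.95 without Homo replicate 2, 23.9 without WT replicate 2 and 26.8 without WT replicate 3, each of the opposite sign. Position belongs to the merged region, and WT replicates 2 and 3 held nearly the same regions, with 97 and 97 kept and 1052 and 1055 WT-only. Their values are thus nearly 1 value, and the sign-flip p does not rest on 3 separate measurements. The 29 regions with a peak in all 3 WT libraries and in no Homo library included none at a gene end, while 757 of the 1026 with a peak in 2 WT libraries and no Homo library were at one.

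Among kept regions, those off gene ends were the ones seen in the short lists. Of the 47 kept regions off gene ends, 30 had a peak in WT replicate 1, 32 in Homo replicate 2 and 26 in both, while of the 50 at gene ends 11 had a peak in each of these libraries and 6 in both. All 6 libraries listed 11 kept regions off gene ends and 5 at gene ends. The off-end regions lay a median of 29259 bp from the nearest gene end, and 35 of the 47 were more than 10 kb away. The off-end kept peaks also had the higher median percentile in each of the 6 lists except that of Homo replicate 1. The median was 77.7 against 23.9 for kept gene-end peaks in WT replicate 1 and 60.8 against 23.5 in Homo replicate 2. In WT replicate 2 the medians were 98.1 and 89.9 and in Homo replicate 3 82.7 and 62.4. In WT replicate 3 they were 97.2 and 97.0, and in Homo replicate 1 58.5 and 61.2.

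Among kept regions off gene ends with a peak in all 6 libraries, the highest in the WT lists lay near Rgcc, Ramp3 and Pdgfb. The region at chr14:79305063-79305454, 3625 bp from Rgcc, a regulator of the cell cycle, ranked 1, 7 and 1 in the WT lists and 2, 14 and 5 in the Homo lists. Its summit fold was 27.3, 21.6 and 34 in WT and 16.8, 7.69 and 13.9 in Homo, so each Homo value was below each WT value. The region at chr11:6710238-6711073, between genes and 52065 bp from Ramp3, which encodes a receptor activity-modifying protein, ranked 3, 4 and 3 in WT and 21, 10 and 17 in Homo. The region at chr15:79978459-79979221, 16974 bp from the growth factor gene Pdgfb, ranked 4, 5 and 20 in WT and 17, 12 and 13 in Homo. Among WT-only regions off gene ends with a peak in all 3 WT libraries, the highest lay inside Moxd1, a monooxygenase-like gene, at chr10:24269002-24269626. It ranked 13, 17 and 36 in the WT lists, with summit folds of 17.4, 26.8 and 23.8, and was listed in all 3 Het libraries at ranks 15, 64 and 32. Its summit background, 0.687, 1.15 and 1.09, was the lowest in each WT list. No Homo library listed the region, although it stood at percentiles 87.0, 98.9 and 99.2 of the WT lists. The next among these were between genes 82020 bp from Anxa5, with WT ranks 39, 52 and 325, and inside Slc2a13, a myo-inositol transporter gene, with 32, 43 and 709.

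Of the kept gene-end regions with a peak in all 6 libraries, the highest in the WT lists was that of Ncl, which encodes nucleolin, an abundant nucleolar protein of ribosome assembly and a classic MYC target. Its region at chr1:86358503-86359034 has its summit 662 bp downstream of the start, inside the gene, and ranked 16, 11 and 2 in the WT lists and 1, 3 and 14 in the Homo lists. The summit held 156, 211 and 199 MYC reads in WT and 114, 100 and 156 in Homo, and the fold was 10.9, 19.5 and 25.5 in WT and 13.0, 12.4 and 8.92 in Homo. WT replicate 1 lies among the Homo values here, so the folds of the 2 groups overlap. In Het the ranks were 9, 1 and 10.

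Another 4 kept gene-end regions had a peak in all 6 libraries. Pde4a, a cAMP phosphodiesterase gene, had folds of 4.57, 22.9 and 12.4 in WT and 6.73, 5.34 and 8.64 in Homo. Dazap1 had 5.29, 13.5 and 18.2 in WT and 6.58, 7.54 and 6.41 in Homo. In both genes WT replicate 1 gave the lowest of the 6 values and WT replicates 2 and 3 the highest. Supv3l1, the helicase that unwinds RNA in mitochondria, ranked 79, 109 and 59 in WT and 13, 23 and 7 in Homo, and its fold of 15.5 in Homo replicate 3 was above that in all 3 WT libraries. Ube2cbp, a ubiquitin ligase gene, ranked 85, 35 and 11 in WT and 12, 48 and 27 in Homo.

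The remaining leading kept genes were listed in 5 libraries. Ifrd2, Psme3 and Mrpl23 lacked a WT replicate 1 peak. Psme3 encodes the PA28-gamma activator of the nuclear proteasome and ranked 140 and 76 in WT replicates 2 and 3 and 22, 31 and 60 in Homo. Mrpl23, a mitochondrial ribosomal protein gene, had folds of 5.09 and 18.2 in WT and 8.27, 8.42 and 3.54 in Homo, so its groups overlap. The region inside Fam185a, within 1 kb of ends of both Fam185a and Ccdc146, and those of Xpot and Srm, lacked a Homo replicate 2 peak. Xpot reached the highest fold of these genes, 32.5 in WT replicate 3, with 6.91 and 11.1 in WT replicates 1 and 2 and 4.15 and 8.66 in Homo replicates 1 and 3. Srm, the spermidine synthase of the polyamine pathway, had 7.16, 10.7 and 16.6 in WT and 7.11 and 6.64 in Homo replicates 1 and 3.

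**Figure D4:**
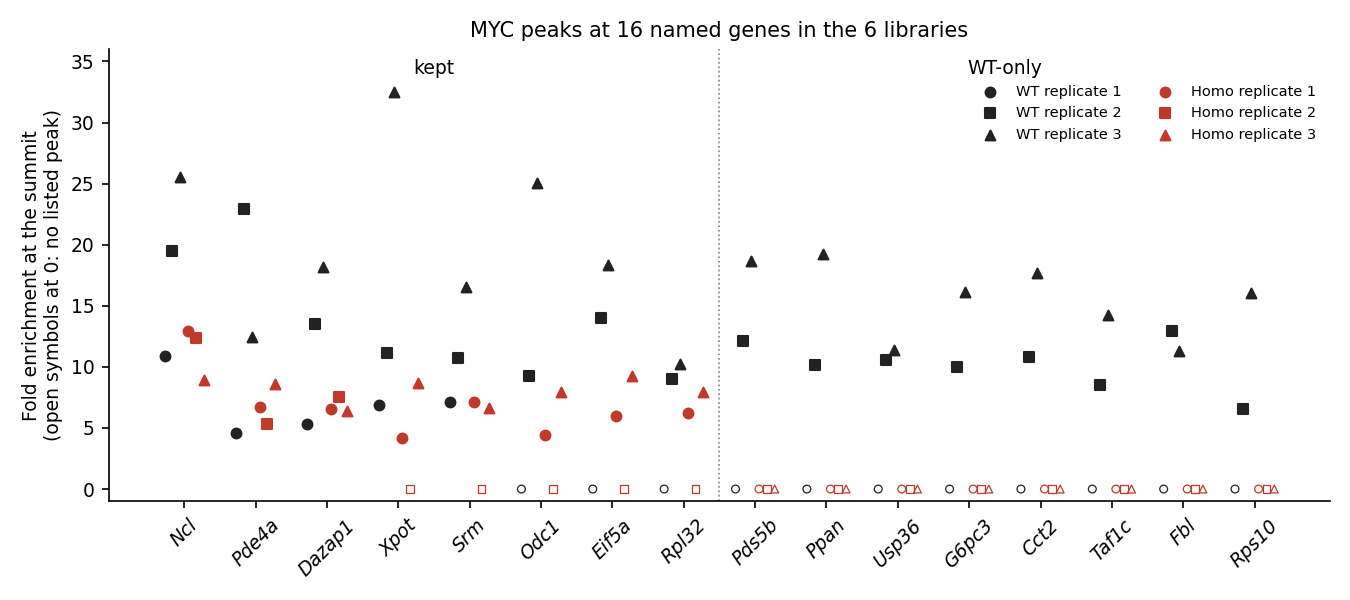
Fold enrichment at the peak summit (vertical axis, the authors' values) in each of the 6 libraries for 8 genes at kept and 8 at WT-only regions; open symbols at 0 stand for no listed peak, not for a measured 0. At the WT-only genes the filled symbols are WT replicates 2 and 3 only, at folds from 6.53 at Rps10 to 19.2 at Ppan, while at the kept genes Homo values lie between 4.15 and 13.0.

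The highest-ranked WT-only genes were peaks of WT replicates 2 and 3 that no Homo library listed and WT replicate 1 did not list either. Pds5b, a cohesin regulator, ranked 114 and 54 in these 2 lists, with folds of 12.1 and 18.7. Ppan, a factor of large ribosomal subunit assembly, ranked 117 and 60, with 87 and 96 summit reads and a fold of 19.2 in WT replicate 3. Usp36, the nucleolar deubiquitinase, ranked 95 and 126. In both lists Pds5b and Ppan ranked higher than the kept genes Psme3, at 140 and 76, and Mrpl23, at 481 and 92. Usp36 ranked higher than these kept genes in WT replicate 2 only.

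The next were G6pc3, Cmc1, Wdr4, Cct2, Taf1c, Ttc25, Fbl, Wdr41 and Rabggtb, with ranks between 50 and 356. Cct2, a subunit of the TRiC chaperonin that folds actin and tubulin, had folds of 10.8 and 17.7, and Taf1c, a subunit of the RNA polymerase I selectivity factor, had 8.51 and 14.2. Fbl encodes fibrillarin, the methyltransferase of box C/D snoRNPs, and had folds of 13.0 and 11.3 at a summit 872 bp from a gene end. Het replicate 1 listed all 12 genes and Het replicate 2 listed 11, Rabggtb being the exception, and Het replicate 3 listed 6.

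Just outside the kept class, 222 regions had a peak in 2 or more WT libraries and in exactly 1 Homo library. Wipf2 had WT folds of 9.01, 16 and 22 and a fold of 7.13 in Homo replicate 1. B3galt6 and Sdf4, which share a region, Trim65 and Eef1a1, the translation elongation factor, were listed in all 3 WT libraries and in Homo replicate 3, with Homo folds of 4.07, 4.42 and 4.16. Eef1e1, a subunit of the multi-tRNA synthetase complex, ranked 57 and 34 in WT replicates 2 and 3 and 49 in Homo replicate 1, and lacked a peak in the other Homo libraries. The Homo folds of Wipf2 and the 3 regions after it, from 4.07 to 7.13, are within the span of those at the kept genes named above. Over all regions, the median fold in Homo replicate 3 was 7.98 in kept regions and 6.55 in those with 1 Homo library, and the median percentile 71.5 and 41.1.

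CACGTG was searched in the RefSeq promoters of the nearest start, 300 bases long; the motif is its own reverse complement, so 1 search covers both strands. It was in 1666 of 21263 promoters of protein-coding genes (7.84%). Among regions seen in 1 WT library and no Homo library it was in 15.9% of 1741 promoters, among WT-only regions in 150 of 642 (23.4%, 95% exact binomial interval 20.1 to 26.8), among regions with 1 Homo library in 39 of 119 (32.8%) and among kept regions in 14 of 41 (34.1%, 20.1 to 50.6). The kept and WT-only intervals overlap. With the promoters of all starts within 1 kb of the summit counted, the shares were 24.6% of WT-only and 34.1% of kept regions, a difference of 9.54 percentage points. Where the summit lay inside the searched window the shares were 107 of 293 for WT-only regions (36.5%), 24 of 47 (51.1%) for those with 1 Homo library and 8 of 11 for kept regions. In those promoters the E-box lay a median of 39, 16 and 25.5 bp from the summit. With CACGCG and CATGTG and their reverse complements counted too, none of which can share bases with a CACGTG match, 25 of 41 kept (61.0%) and 58.1% of WT-only promoters held a motif, against 28.7% of all promoters. The promoters of the 2 classes were alike in base composition, with a median GC content of 65.3% in kept and 64.3% in WT-only regions and 29 and 26 CpG, against 56.3% and 13 over all promoters.

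Among the 642 WT-only, 119 single-Homo and 41 kept regions with a summit within 1 kb of a known start, the median position of the summit was 26 bp downstream of the start in WT-only regions, 30 bp in those with 1 Homo library and 89 bp in kept regions, and 70.1%, 73.1% and 56.1% of these summits lay within 250 bp of it. A region shared by the ends of 2 or more genes, as at divergent promoters, was 12.9% of the WT-only and 12% of the kept gene-end regions.

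In terms of gene function, 1057 of 21887 protein-coding genes (4.83%) had a recurrent WT region at an end. For 838 of these genes (79.3%) the region was WT-only, for 163 (15.4%) it had 1 Homo library and for 56 (5.3%) it was kept. The division is read against these shares. The lists of genes below were chosen with earlier results of these data known, and their counts are a description.

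The genes that build ribosomes fell on both sides. Of 50 ribosome biogenesis genes 26 had a recurrent WT region, of which 2 were kept, 7 had 1 Homo library and 17 were WT-only (65.4%, against 79.3% over all genes). Ncl and Nop56, a core protein of box C/D snoRNPs, were kept. Dkc1, Gar1, Gnl3, Noc2l, Nolc1, Nop58 and Wdr43 had 1 Homo library. Ppan, Usp36, Fbl, Lyar, Nop2, Npm1 and Bop1 were among the genes with a WT-only region at an end. Npm1 also held a kept region inside the gene, with a peak in 3 WT and 2 Homo libraries. Its summit lay 1765 bp from the gene end counted here, outside the 1 kb window. The box C/D core was thus divided, with Nop56 kept, Nop58 in 1 Homo library and Fbl WT-only. Nop56 ranked 403 and 173 in WT replicates 2 and 3, and 59 and 265 in Homo replicates 1 and 3. Fbl ranked 97 and 356 in the same WT lists, so the kept member was the lower of the pair in WT replicate 2 and the higher in WT replicate 3. RNA polymerase I and III genes had 8 recurrent regions of 25, with none kept, 2 in 1 Homo library (Polr1b and Polr3d) and 6 WT-only, among them Taf1c, Polr3e and the polymerase I initiation factor Rrn3.

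Cytosolic ribosomal protein genes had 33 recurrent regions of 78 members, with 4 kept, 7 in 1 Homo library and 22 WT-only (66.7%). The 4 kept genes, Rpl10a, Rpl12, Rpl32 and Rpl5, all encode proteins of the large subunit. Rpl10a ranked 192 and 42 in WT replicates 2 and 3 and 72 and 105 in Homo replicates 1 and 3, and Rpl5 396 and 375 in WT and 46 and 28 in Homo. The highest WT-only members were Rpl36, at 199 and 128, Rps25, at 146 and 839, Rpl13, at 317 and 465, and Rps10, at 455 and 95. The WT ranks of kept and WT-only ribosomal protein genes therefore overlap.

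Translation factors had 17 recurrent regions of 43 members, with 3 kept, 3 in 1 Homo library and 11 WT-only. Eif5a, the hypusine-bearing factor that keeps ribosomes moving, was the highest kept member, with folds of 14 and 18.3 in WT replicates 2 and 3 and 5.98 and 9.28 in Homo replicates 1 and 3. Its Homo folds lie below both WT folds. Eif3e was kept although it ranked only 995 in WT replicate 3. It ranked 27 in Homo replicate 1 but 302 of 303 in Homo replicate 3, near the end of that list. Pabpc1, the poly(A)-binding protein gene, ranked 225 and 173 in WT and was WT-only. Of the 4 recurrent aminoacyl-tRNA synthetase list members, Vars was kept, Aimp2 had 1 Homo library and Gars and Tars were WT-only.

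Nucleotide and polyamine synthesis genes had 13 recurrent regions of 31 members. The kept pair, Odc1 and Srm, are the enzymes that make putrescine and spermidine, and Amd1, the decarboxylase that supplies the aminopropyl groups, was WT-only. Odc1 had folds of 9.27 and 25.1 in WT replicates 2 and 3 and of 4.42 and 7.98 in Homo replicates 1 and 3, the latter below both WT values. Atic, Ctps and Impdh1 had 1 Homo library, and Cad, the first enzyme of pyrimidine synthesis, with WT folds of 8.41 and 12, was WT-only, as were Nme1, Nme2, Mthfd1l, Shmt1, Shmt2 and Pfas.

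Splicing and RNA-binding genes had 16 recurrent regions of 30, with Hnrnpa1, Pcbp1 and Snrpd1 kept, 3 in 1 Homo library and 10 WT-only. Pcbp1, a poly(C)-binding protein gene, ranked 86 and 14 in WT replicates 2 and 3 and 61 and 29 in Homo replicates 1 and 3. Nuclear transport genes had 8 of 24, with Ran and Xpot kept, Ipo7 and Rcc1 in 1 Homo library and Ranbp1, Nup153, Kpnb1 and Tnpo1 WT-only. The Ran cycle was divided in this way, the GTPase itself being kept, its exchange factor Rcc1 in 1 Homo library and its binding protein Ranbp1 in none. The Ran peak ranked only 89 of 112 in Homo replicate 1, and 58 of 303 in Homo replicate 3. The Ranbp1 region is shared with Trmt2a, the nearer gene. Of the proteasome list of 32, Psme3 was kept and Psmc2 WT-only, and the rest had no recurrent region. Psmc2 shares its region with Dnajc2, the nearer gene.

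Lists with no kept member were also common. Chaperonin genes had 8 recurrent regions of 13, with the neighbours Hspd1 and Hspe1 in 1 Homo library and Cct2, Cct3, Cct4, Cct7, Cct8 and Hspa9 WT-only. Cct3 shares its region with Tsacc, the nearer gene. Mitochondrial biogenesis genes had 7 of 28, with 5 WT-only, among them Tfam, the packaging factor of mitochondrial DNA. Cell cycle and replication genes had 6 of 33, with 5 WT-only, among them the replication licensing genes Mcm6, Mcm7 and Cdt1. Circadian E-box genes had 8 of 18, with 4 WT-only, among them Per1, Tef and Dbp. Glycolysis and lactate transport genes had 4 of 22, with Slc16a1 and Pfkl WT-only. With 8 or fewer recurrent genes in a list and 5.3% kept over all genes, a count of 0 kept members is near what the background share gives.

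**Figure D5:**
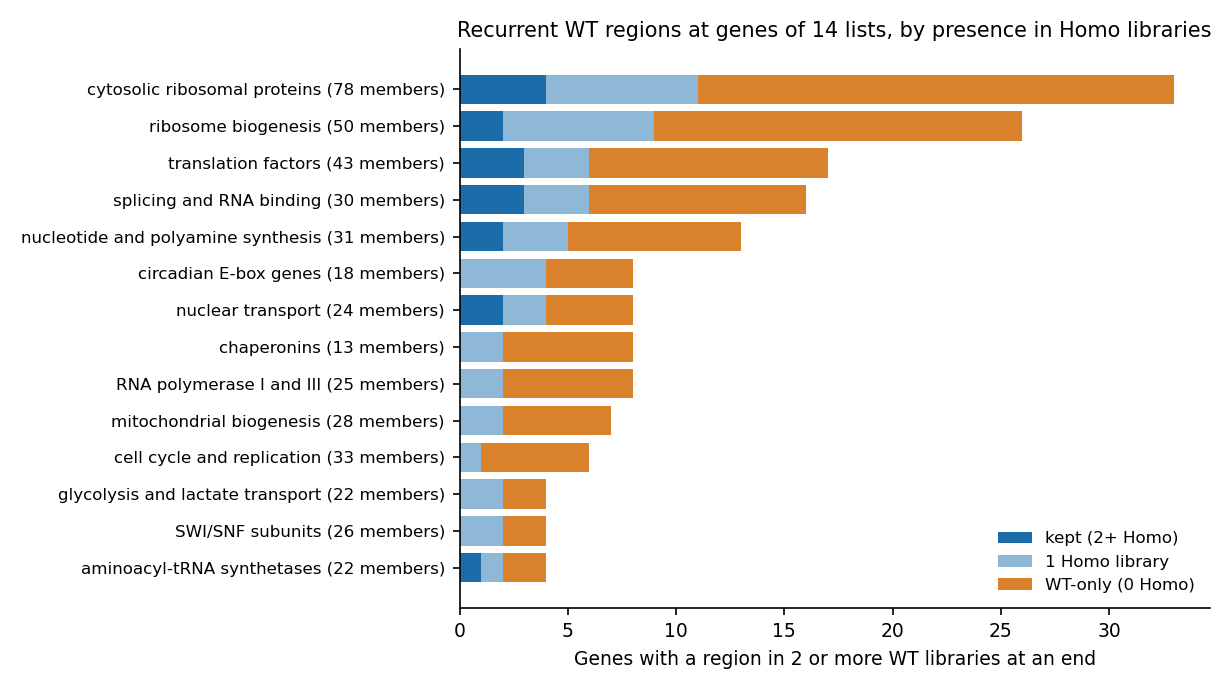
Number of genes with a recurrent WT region at an end (horizontal axis) in each of 14 gene lists with 4 or more such genes, by presence in Homo libraries. WT-only genes are the largest class in 11 of the 14 lists and level with another class in 3, ribosomal proteins having 22 of 33 and ribosome biogenesis 17 of 26, and kept genes occur in 7 lists.

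The rank of a list in WT and its share of WT-only genes did not go together evenly. The median WT percentile over recurrent genes was 80.1 in the ribosome biogenesis list and 72.3 in the ribosomal protein list, against 62.6 over all 1057 genes. Chaperonin genes had 83.6 with 75% WT-only and none kept, while circadian genes at 53.0 and SWI/SNF genes at 54.7 were 50% WT-only. At like rank the lists hold too few genes for their share with a Homo peak to be told from that of all genes. Between the 80th and 90th percentile it was 40.9% over all 159 genes, 3 of 7 in ribosome biogenesis and 4 of 8 in ribosomal proteins, and above the 90th percentile 75.3% of all 89 genes, 3 of 6 and 4 of 5. Below the 60th percentile 4.52% of 487 genes had a Homo peak.

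The loci of the knockout and of liver identity gave little at gene ends. Among the 6 libraries, Arid1a had peaks near its ends only in WT replicate 3. They ranked 826 and 4098, with folds of 10.8 and 4.19. Cebpb, the gene whose promoter makes up LAP, had 1 gene-end peak, of rank 4051, in the same library. A WT-only region inside Cebpb, at chr2:167689809-167690193, had its summit 1135 bp from the gene end counted here. That region had a peak in 2 WT and 2 Het libraries. No peak lay at an end of Alb or Myc. A kept region between protein-coding genes, at chr15:62037759-62038248, lay 47662 bp from Myc and had a peak in 3 WT and 2 Homo libraries. Among the SWI/SNF subunit genes 4 of 26 had a recurrent WT region: Pbrm1 and the ATPase gene Smarca4 with 1 Homo library, and Smarcc1 and Bcl7b WT-only at low WT ranks of 614 and 3259, and 1513 and 1460. Of 32 hepatocyte identity genes only Ass1, of the urea cycle, had a recurrent region, WT-only at ranks 913 and 2226. None of the members of the lists for cholangiocytes (10), endothelial and stellate cells (16), immune cells (19), fetal liver (14) and cytochrome P450 (22) had a recurrent WT region, nor did the 14 genes of the MYC network. Of 22 genes of epithelial-mesenchymal transition and metastasis, Snai1 had one, with 1 Homo library. Over all protein-coding genes 4.83% had a recurrent WT region. A count of 0 or 1 in any of these lists of 10 to 32 genes is near that share. The MYC peaks thus give no check of the labelled tissue.

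Starts of noncoding genes were looked up only where the sequence table gave one, so others may be missed. A pair of kept regions off the ends of protein-coding genes lay at such starts, both of hosts of small nucleolar RNAs. The region of Snhg15, at chr11:6528264-6529011, had a peak in all 6 libraries. The region of Snhg17, at chr2:158361012-158361836, had a peak in 3 WT and 2 Homo libraries. Among WT-only regions off gene ends, 26 of 298 were at such starts.

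The Het libraries, which the definition did not use, listed kept regions more often than WT-only ones in each of the 3 replicates. Het replicate 1 had a peak in 97 of 97 kept and 693 of 1055 WT-only regions (65.7%), Het replicate 2 in 99.0% and 67.1%, and Het replicate 3 in 79.4% and 12.6%. Het replicate 3 is the shortest of these lists, with 378 peaks against 1713 and 1869, and shows the largest gap. The difference was 34.3, 31.9 and 66.8 percentage points, higher in 3 of 3 libraries, with a mean of 44.3 and an exact sign-flip permutation p = 0.25, the smallest that 3 libraries allow. Regions with 1 Homo library lay between the classes, at 42.8% in Het replicate 3 and nearer the kept regions, at 94.6% and 95.9%, in Het replicates 1 and 2.

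WT-only regions were not all alike in Het. Of the 1055, 564 (53.5%) had a peak in 2 or more Het libraries, 110 (10.4%) in all 3, and 195 (18.5%) in none. Those in no Het library had a median WT percentile of 42.0, those in 1 of 49.0, those in 2 of 64.3 and those in all 3 of 71.9. The genes in all 3 Het libraries and no Homo library included Ppan, Usp36, G6pc3, Wdr4 and Cct2, and those in no Het library included the list members Bcl7b, Mcm6, Ass1 and Psmc2. Of the 14 WT-only regions above the 90th percentile in WT replicates 2 and 3, 14 had a peak in 2 or more Het libraries and 9 in all 3.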

How the data were processed

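The study sequenced 9 MYC ChIP and 9 input libraries of mouse liver tumours; 6 MYC peak lists define the regions here and the 3 Het lists serve for comparison. Per the submitters' processing notes, MACS2 2.0.10.20131216, Bowtie2 2.2.3, HOMER and Picard were used with build mm10; no source used here gives the peak threshold. The deposited lists hold 1 library each. Their values are the authors' peak score, fold enrichment at the summit, and −log10 p and −log10 q of each peak. The fold was read as a ratio to local background with 1 added to each side, so it depends on depth. Peak heights, ranks and q-values are the authors'.

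Peaks sharing at least 1 bp were merged into regions (Python 3.11.15, pandas 2.3.3, numpy 2.4.6, scipy 1.17.1), and the library was the replicate. Genes came from RefSeq GRCm38.p6, with starts and strand for 17492 of 21887 protein-coding genes and both span ends for the other 4395. Summit reads and input depth were solved from fold and −log10 p for 98.8% of 10376 peaks over the 9 lists, a step tested on simulated data; peaks without a solution have no read value. No table of total reads was used, so depth is known only through these values, and intervals cover counting error only. Differences between classes were tested with exact sign-flip permutation tests over libraries, and between genotypes with exact permutation tests.

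Named genes were up to 12 at kept and 12 at WT-only gene ends, ordered by number of libraries and mean WT rank, up to 4 per list and class, up to 3 off-end regions per class, up to 6 just outside the kept class, and Arid1a, Myc, Alb and Cebpb; others are named as members of a list or after their values were seen. Of the 622 genes of the 23 lists all were matched by symbol, and 5 further entries were not. The regions, gene lists and rules were chosen with earlier results of these data known. Alternatives were stricter peak limits, other windows and overlaps, thinned lists and each library left out.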

Additional observations from a re-analysis of the deposited data

How the results depend on the processing

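The higher rank of kept regions and their more frequent presence in Het kept their direction under each of the 14 alternatives run for them, from 20.7 to 48.7 percentile points and from 16.1 to 48.4 percentage points, and the excess of WT peaks under 12, from 0.500 to 1.33 on the log10 scale. The counts depended on list length. With the top 51 peaks of each list there were 8 WT-only and 20 kept regions and 11 Homo-only regions (2 or more Homo libraries and no WT library), the E-box difference over regions at a start was -33.3 points against 9.54 in the full lists, and 1 list member was left against 126. Thinned lists gave 210 WT-only regions, 1 Homo-only region and 42 list members, and a fold of at least 5 gave 1 Homo-only region. A peak in 3 of 3 WT libraries left 29 WT-only and 41 kept regions and 4 list members, and turned the gene-end difference to 26.8 points. Leaving out each library in turn gave 29 to 1244 WT-only regions, 24 to 97 kept regions, 4 to 147 list members and E-box differences of 5.30 to 30.0 points. The lowest WT-only counts were 34 without WT replicate 2 and 29 without WT replicate 3, and the kept count was 24 without Homo replicate 3 and 41 without Homo replicate 1, WT replicate 2 or WT replicate 3. The gene-end difference of -5.61 points ran from -27.3 to 26.8, with the opposite sign without WT replicate 2 (23.9), WT replicate 3 (26.8) or Homo replicate 2 (5.95); the cause was not tested beyond the fewer regions left. No E-box value could be given without WT replicate 3 or with 3 of 3 WT libraries. Without WT replicate 1 and Homo replicate 2 together, chosen after seeing the data, there were 1059 WT-only and 76 kept regions, 1052 of the former overlapping those of the full lists. With the replicate number as a block the log10 difference in peaks was 0.851 with an exact sign-flip permutation p = 0.5. In presence over regions, relative to the group mean, same-numbered libraries correlated at 0.05, -0.242 and -0.175. Differently numbered libraries ran from -0.235 to 0.272. List length enters these values, so they cannot decide whether the numbers pair the samples. Each Homo input was shallower than each WT input. At a −log10 p of at least 10 the log10 difference in peaks was 0.822, and it was 0.582 once the lists were also thinned. WT-only regions numbered 813 and 210 in these settings. The part of depth in list length was not tested beyond this, and 3 libraries a group cannot reach a p below 0.1.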
